A study of Homo sapiens with 4 samples.

Results

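The BCL2 family controls whether the outer membrane of mitochondria is opened, the step that commits most cells to apoptosis. The 10 members described here were chosen by gene symbol, out of 62696 gene rows in each file, as 4 anti-apoptotic genes (BCL2, BCL2L1, MCL1 and BCL2A1), 2 effector genes (BAX and BAK1) and 4 genes that encode proteins with only the BH3 domain (BID, BBC3, PMAIP1 and BCL2L11). Each symbol matched 1 row, and all 10 passed the filter on low values (mean normalized count of 10 or more). BCL2A1 passed it only through its level in wild-type cells. RNA was sequenced in 4 libraries from OVCAR3, an established line of ovarian carcinoma cells. The knockdown group (KD, n = 3 libraries, named Set 1, 2 and 3 by the submitters and KD 1, 2 and 3 here) is a derivative of OVCAR3 with a short hairpin RNA against the pseudogene transcript ANAPC1P2, and the comparison group is wild-type OVCAR3 (WT, n = 1 library). All cells were kept in RPMI medium with serum. The labels do not state whether the 3 sets are separate cultures, hairpins or clones, so the p-values rest on the spread among the 3 libraries, and that spread may be only technical. No library is labelled as carrying a control hairpin, so the presence of a hairpin and the loss of ANAPC1P2 cannot be told apart.

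Proteins of the anti-apoptotic group hold the effectors and the BH3-only proteins in a groove on their surface. When BH3-only proteins fill that groove or bind the effectors directly, BAX and BAK1 form pores, cytochrome c leaves the mitochondria and caspases are activated. The balance between the groups, more than the level of any 1 member, is what the family is known for. In ovarian carcinoma cells BCL-XL, the product of BCL2L1, and MCL1 are the anti-apoptotic proteins most often studied as drug targets.

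The contact between the groups is made by a short helix, the BH3 domain, and its coding bases are shown here because they are what the members share beyond the symbols used to choose them. Its core was searched in the principal coding transcript of each member in GENCODE 29 (GRCh38) as a leucine codon, 3 codons of any kind, a glycine or alanine codon and an aspartate codon. Exactly 1 match was found in 9 of the 10 members and none in BCL2A1, which says only that this pattern is not in that transcript. The lines below run from 5′ to 3′ on the coding strand, with the 6 core codons in capitals and 9 bases on either side.
BCL2: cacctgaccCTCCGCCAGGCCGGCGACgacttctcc
BCL2L1: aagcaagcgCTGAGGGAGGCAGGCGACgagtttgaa
MCL1: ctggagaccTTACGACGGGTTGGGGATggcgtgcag
BAX: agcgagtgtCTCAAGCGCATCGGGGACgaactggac
BAK1: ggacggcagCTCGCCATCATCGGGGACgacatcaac
BID: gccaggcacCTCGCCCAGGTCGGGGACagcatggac
BBC3: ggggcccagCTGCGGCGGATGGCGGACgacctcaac
PMAIP1: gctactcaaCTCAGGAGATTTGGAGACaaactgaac
BCL2L11: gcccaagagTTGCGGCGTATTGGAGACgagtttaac
In each of the 9 the stretch lies within 1 coding exon, and none of them crosses an exon junction. Among the anti-apoptotic genes they lie at chr18.0:63318352-63318387 in BCL2, chr20.0:31721925-31721960 in BCL2L1 and chr1.0:150578868-150578903 in MCL1, all on the minus strand. The effector stretches are at chr19.0:48955778-48955813 on the plus strand in BAX and chr6.0:33575390-33575425 on the minus strand in BAK1. Those of the BH3-only genes are at chr22.0:17739418-17739453 in BID and chr19.0:47226582-47226617 in BBC3 on the minus strand, and at chr18.0:59902664-59902699 in PMAIP1 and chr2.0:111150094-111150129 in BCL2L11 on the plus strand. BBC3 is the member with an alanine codon at the fifth core position, and the other 8 have a glycine codon there. In PMAIP1 the core is codons 29 to 34 of only 54, so the BH3 domain is a large part of that protein.

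Several facts of the libraries touch every value below. The files hold 42871815 to 56216398 counted reads per knockdown library and 27868718 in WT. All 12 fixed markers of the labelled cells, among them PAX8 and EPCAM, had reads in all 4 libraries, but their levels differed between the groups. With limma 7 of the 12 were called higher in KD and 4 lower, against 45.9% and 24.7% of protein-coding genes. MUC16 was 15.9-fold and PAX8 3.15-fold lower in KD, and EPCAM was 2.42-fold higher. The library labelled wild type also held transcripts typical of other cells: the 6 erythroid markers summed to 14707 normalized counts there against 1.55 to 3.79 in KD, and the 18 leukocyte markers to 1833 against 417 to 440. The part of such RNA in the results was not tested. ANAPC1P2 itself was rare: in 1 gene row of that symbol KD 1, 2 and 3 held 0, 11 and 8 reads and WT 14. Another row of the symbol had 0 reads in every library. The pooled knockdown level of the first row was 37.7% of WT (95% exact counting interval 17.9% to 81.3%). That interval covers counting error only, pools the unlike knockdown libraries and rests on the deposited scaling. Differences between the groups were common across the transcriptome: limma called 31.4% of the 23344 genes tested higher in KD and 36.3% lower, and with equal library totals in place of the deposited scaling 20.3% higher and 53.6% lower. Among the 14464 protein-coding genes tested, the class of all 10 members, 45.9% were called higher and 24.7% lower. The median log2 difference of protein-coding genes, KD minus WT, was 0.28 with the deposited scaling, -0.28 with equal totals and 0.46 with median-of-ratios scaling. The position of a member among other protein-coding genes is therefore given beside its difference.

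Of the 10 members, BID, PMAIP1, BCL2L1, BAK1 and BAX were called higher in KD, MCL1 and BCL2A1 lower, and BCL2, BBC3 and BCL2L11 were not called (limma on log2(normalized count + 1), adjusted p under 0.05 over all genes tested). That is 5 of 10 higher against 45.9% of protein-coding genes and 2 of 10 lower against 24.7%, so the shares were close to the background. BCL2A1 counts among the lower members although it entered the test only through WT, with a knockdown mean of 3.38; without it 1 of 9 was lower. The shares of protein-coding genes were 29.8% higher and 44.3% lower with equal library totals. The median difference of the 10 was 0.4 on the log2 scale. All 3 knockdown libraries were above WT for 6 members, against 55.7% of protein-coding genes, and below it for 2, against 36.7%. What sets the members apart from each other is the size and the side of the change. BID and PMAIP1 rose more than 4-fold, while the others, apart from the scarce BCL2A1, differed by less than 2-fold.

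These counts moved with the scaling, and so did the background. With equal library totals 3 members were called higher and 4 lower (20.3% and 53.6% of all genes tested), and with upper-quartile scaling also 3 and 4 (22.5% and 50.7%). Median-of-ratios scaling gave 6 higher and 1 lower (35.5% and 30.8%). Without the filter 5 were higher and 1 lower (15.8% and 22.3%), as with a mean of 50 or more (45.4% and 32.5%), which leaves BCL2A1 out. Without KD 1, 4 were higher and 1 lower (28.7% and 32.2%), without KD 2, 5 and 2 (30.2% and 32.3%), and without KD 3, 4 and 2 (29.7% and 34.8%). BID, PMAIP1 and BCL2L1 were among the members called higher in each of these settings.

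**Figure D1:**
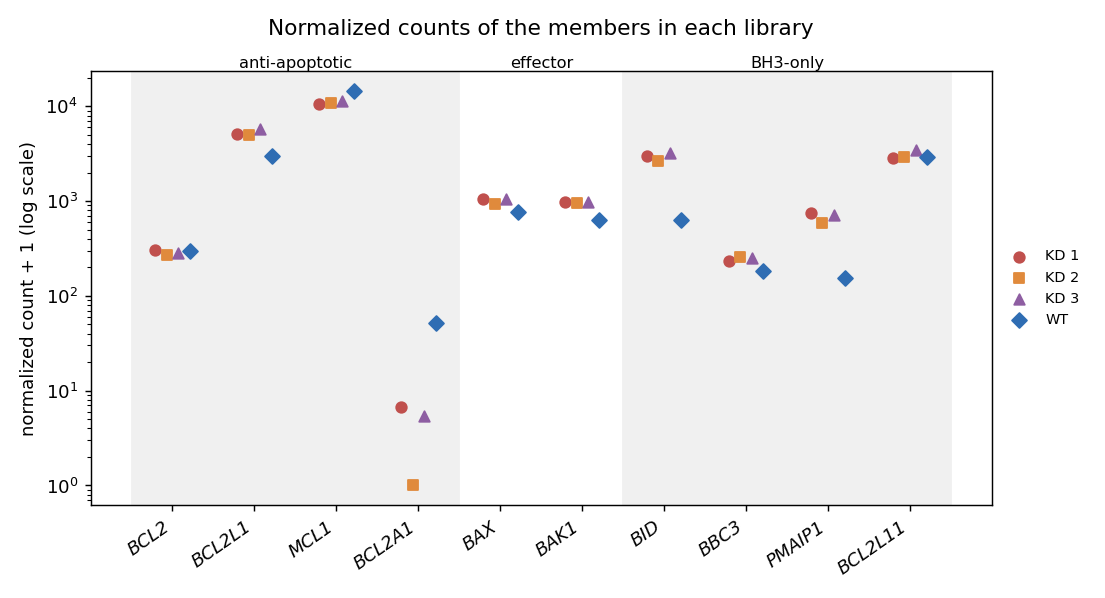
Normalized counts + 1 on a log axis (y) of the 10 members (x), with 1 point for each of the libraries KD 1, 2, 3 and WT. For BID and PMAIP1 the 3 knockdown points sit far above the wild-type point, for MCL1 and BCL2A1 below it, and for BCL2 and BCL2L11 the wild-type point lies within the range of the knockdown points.

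MCL1 was the most abundant member in every library and was lower in KD. MCL1 (ENSG00000143384.14, chr1:150574551-150579738, minus strand) encodes a short-lived anti-apoptotic protein that binds BAK1, BCL2L11 and PMAIP1. It stood at 10512, 10921 and 11278 normalized counts in KD 1, 2 and 3 and at 14555 in WT. All 3 knockdown libraries were below WT, and they differed from each other by little, with a coefficient of variation (SD over mean) of 3.52%. The log2 difference was -0.42 ± 0.10 (SE, n = 3 and 1, limma adjusted p = 0.0126), at percentile 28.7 of protein-coding genes. The call was lost without KD 1 (-0.39, adjusted p = 0.0595) and with median-of-ratios scaling (-0.24, adjusted p = 0.0602), and the direction stayed under all 15 alternatives.

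BCL2L1 moved the other way. BCL2L1 (ENSG00000171552.14, chr20:31664452-31723989, minus strand) encodes BCL-XL, which restrains both BAX and BAK1, and by alternative splicing the pro-apoptotic short form BCL-XS. Gene counts do not separate these forms. It stood at 5158, 4994 and 5749 normalized counts in KD 1, 2 and 3 and at 2961 in WT, so each knockdown library was well above WT. The log2 difference was 0.84 ± 0.11 (SE, limma adjusted p = 0.0010), a ratio of 1.79, at percentile 68.3 of protein-coding genes. It was called higher under all 15 alternatives, with differences from 0.27 (equal library totals) to 1.02 (median-of-ratios scaling). The antisense gene ABALON shares 1424 exonic bases with BCL2L1, and its level was 0.735% to 1.28% of that of BCL2L1 in KD and 5.18% in WT. The strand setting of the counting is not stated in the labels, so reads of the 2 genes in shared bases cannot be told apart.

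BCL2, the founding member, was low and did not differ detectably. BCL2 (ENSG00000171791.14, chr18:63123346-63320128, minus strand) stood at 306, 270 and 280 normalized counts in KD and 297 in WT, and the wild-type value lay inside the knockdown range. Its log2 difference was -0.06 with a 95% interval of -0.46 to 0.35 (limma adjusted p = 0.777). That sign depended on the scaling: it was -0.62 with equal library totals (adjusted p = 0.0154) and -0.52 with upper-quartile scaling (adjusted p = 0.0271), and positive with TMM and median-of-ratios scaling (0.04 and 0.12, neither called).

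BCL2A1 was nearly absent from KD. BCL2A1 (ENSG00000140379.9, chr15:79960889-79971446, minus strand) encodes BFL-1, an anti-apoptotic protein induced by NF-kB and typical of blood cells, and is also expressed in melanocytes. KD 1, 2 and 3 held 6, 0 and 4 of its reads and WT held 46; as normalized counts these are 5.69, 0 and 4.45 against 51.1. All 3 knockdown libraries were below WT. The fitted log2 difference was -3.97 ± 1.18 (SE, limma adjusted p = 0.0232), at percentile 1.5 of protein-coding genes, but a gene that passed the filter only through WT had to differ, so this p and percentile are given as a description and do not support the difference. Over the pooled knockdown reads the level was 16.6-fold lower (95% exact counting interval 8.24 to 36.8, counting error only). With so few reads 1 library moves the value: from the means the fold was 15.1 with all 3 knockdown libraries, 10.1 without KD 2, the library with no read, and 23 without KD 1. The matching log2 differences were -3.11 and -4.48, and without the filter on low values the call was lost (adjusted p = 0.158).

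Markers of blood cells moved in the same direction as BCL2A1. Of 18 leukocyte markers 12 were tested, and limma called 11 lower and none higher, against 36.3% and 31.4% of all genes. Of these 12, 6 (CD3E, CD53, CXCR2, FCGR3B, LAPTM5 and LYZ) passed the filter only through WT and so had to be lower; of the other 6, with a knockdown mean of 10 or more, 5 were called lower. In KD, 6 of the 18 (CD2, CD68, FCGR3B, ITGAM, LYZ and MS4A1) had no read, and none was at 0 in WT. Melanocyte markers summed to 414 to 480 normalized counts in KD and 1869 in WT: MLANA fell (124 ± 36.3, SD, against 671), SOX10, which passed the filter only through WT, stood at 4.94 ± 3.96 against 860, MITF was not called (264.5 ± 5.3, SD, against 241) and TYR had no read in WT. The part of these cell types in the BCL2A1 result was not tested, and in bulk RNA fewer cells of a type and less RNA per cell cannot be told apart. By the Euclidean distance between log2 profiles over the 4 libraries, each centred on its mean, the protein-coding genes most like BCL2A1 among 562 with a mean log2 level within 1 of it were PNPLA3, SLC38A5 and MGAM, at distances of 0.0264, 0.605 and 0.621 on the log2 scale. With 1 library in WT that profile is mostly the difference between the groups.

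The effector genes were both moderately higher with the deposited scaling. BAK1 (ENSG00000030110.14, chr6:33572547-33580293, minus strand) encodes the effector that resides in the mitochondrial membrane. It stood at 974, 964 and 976 normalized counts in KD and 625 in WT, the tightest member among the knockdown libraries, with a coefficient of variation of 0.698% against a median of 7.39% over genes with a knockdown mean of at least 100. With 1028, 1240 and 878 reads in KD 1, 2 and 3, counting error alone is larger than that spread. The closeness of the 3 values is therefore no measure of how tightly BAK1 is expressed. The log2 difference was 0.63 ± 0.11 (SE, limma adjusted p = 0.00254). BAX (ENSG00000087088.21, chr19:48954815-48961798, plus strand) encodes the effector that moves from the cytosol to mitochondria. It stood at 1041, 931 and 1051 normalized counts in KD and 771 in WT, all 3 above WT, with a log2 difference of 0.38 ± 0.12 (SE, limma adjusted p = 0.0296).

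Neither effector was far from the middle of the protein-coding genes, at percentiles 61.6 for BAK1 and 53.5 for BAX. Both calls rest on the scaling. With equal library totals BAK1 stood at 0.07 (adjusted p = 0.519) and BAX at -0.18 (adjusted p = 0.128), and with upper-quartile scaling at 0.17 and -0.08, none called. The BAX call was also lost without KD 1 (adjusted p = 0.0854), without KD 3 (0.0621), without the filter (0.0836) and with DESeq2 (0.052).

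The BH3-only genes held the 2 changes that stood out. BID (ENSG00000015475.19, chr22:17734138-17774770, minus strand) encodes the protein that caspase-8 cleaves to carry a death receptor signal to mitochondria. It stood at 2969, 2637 and 3190 normalized counts in KD 1, 2 and 3 and at 638 in WT. The lowest knockdown library was thus more than 4-fold above WT, and the group ratio was 4.6. The log2 difference was 2.19 ± 0.13 (SE, limma adjusted p = 6.72e-05), at percentile 96.0 of protein-coding genes.

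PMAIP1 (ENSG00000141682.12, chr18:59899948-59904306, plus strand) encodes NOXA, a BH3-only protein that binds MCL1 and promotes its degradation, and is a known target of p53 and of ATF4. It stood at 751, 588 and 712 normalized counts in KD and 153 in WT. KD 2 was the lowest of the 3 and still far above WT, with a group ratio of 4.46. The log2 difference was 2.14 ± 0.18 (SE, limma adjusted p = 1.33e-04), at percentile 95.5. BID and PMAIP1 were called higher under all 15 alternatives, with differences of 1.63 to 2.38 for BID and 1.58 to 2.33 for PMAIP1. The lowest values came with equal library totals.

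BBC3 and BCL2L11 were not called. BBC3 (ENSG00000105327.18, chr19:47220822-47232766, minus strand) encodes PUMA, a p53 target that binds every anti-apoptotic member. It stood at 235, 256 and 248 normalized counts in KD and 184 in WT, all 3 above WT, with a log2 difference of 0.42 and a 95% interval of -0.01 to 0.85 (limma adjusted p = 0.0765). It was called higher with TMM scaling (0.52, adjusted p = 0.0377), with median-of-ratios scaling (0.60, adjusted p = 0.0227) and without the filter (adjusted p = 0.0397), and stood at -0.14 and -0.05 with equal library totals and upper-quartile scaling.

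BCL2L11 (ENSG00000153094.24, chr2:111119378-111168447, plus strand) encodes BIM, which binds all anti-apoptotic members and is removed after ERK signalling. It stood at 2869, 2944 and 3473 normalized counts in KD and 2896 in WT, so WT lay within the knockdown range. The log2 difference was 0.09 with a 95% interval of -0.23 to 0.41 (limma adjusted p = 0.556). With equal library totals and upper-quartile scaling it was called lower, at -0.47 (adjusted p = 0.00863) and -0.38 (adjusted p = 0.0184). The noncoding gene MIR4435-2HG, on the opposite strand, shares 727 exonic bases with BCL2L11 and was well expressed, at 1422, 1530 and 1294 normalized counts in KD against 2891 in WT. Reads of the 2 genes in those shared bases cannot be told apart without the strand setting, so the BCL2L11 value is uncertain to that extent.

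**Figure D2:**
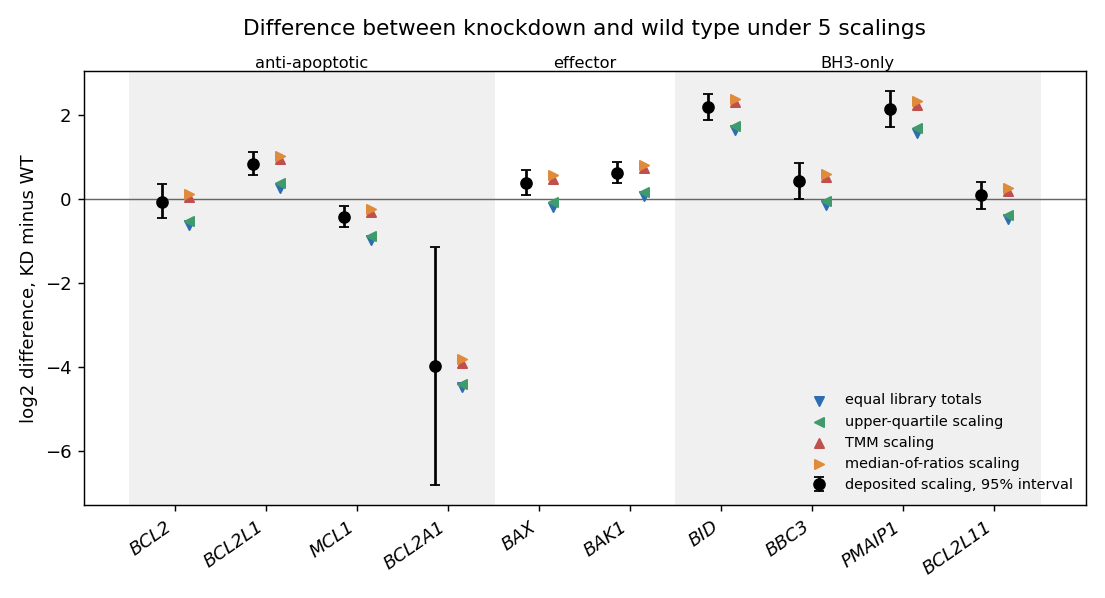
Log2 difference KD minus WT (y) for each member (x): black points with bars are the deposited scaling with its 95% interval, and coloured triangles are 4 other scalings. BID, PMAIP1 and BCL2L1 stay above 0 and MCL1 and BCL2A1 below 0 under all 5 scalings, while BAX, BBC3, BCL2 and BCL2L11 change sign between them.

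**Figure D3:**
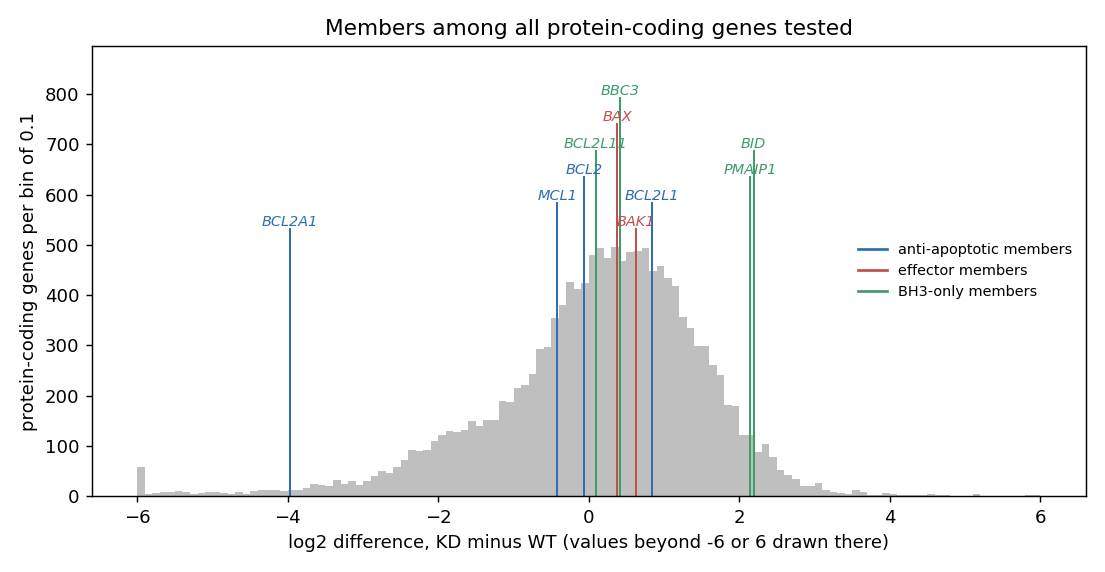
Number of protein-coding genes (y) by log2 difference KD minus WT (x, bins of 0.1), with a line at each member coloured by its group. BID and PMAIP1 lie in the upper tail at percentiles 96.0 and 95.5, BCL2A1 in the lower tail at 1.5, and the other 7 members between percentiles 28.7 and 68.3.

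A ratio between members of the same library does not depend on the scaling between libraries, so it shows which members changed against each other. It is not free of the trend with exonic length given further below, where the members differ in length. For this, normalized counts were divided by exonic length in kilobases. In KD the order of these levels was MCL1 at 2495 ± 87.7 (SD, n = 3), BCL2L1 at 1599 ± 120, BID at 659 ± 62.6, BCL2L11 at 465 ± 49.4, BAK1 at 439 ± 3.06, BAX at 389 ± 25.7, PMAIP1 at 306 ± 37.9, BBC3 at 77.5 ± 3.38, BCL2 at 24.3 ± 1.57 and BCL2A1 at 3.1 ± 2.75. BCL2L11 and BAK1 exchanged places between KD 1 and the others, so their levels did not differ beyond their spread, whereas the ranges of the other neighbours did not overlap. In WT the order was MCL1 (3330), BCL2L1 (894), BCL2L11 (435), BAX (298), BAK1 (283), BID (143), PMAIP1 (68.6), BBC3 (58), BCL2A1 (46.9) and BCL2 (25.2), without replicates. MCL1 and BCL2L1 thus led in all 4 libraries, while BID had rank 3 in KD and rank 6 in WT.

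Within the anti-apoptotic group the balance differed between MCL1 and BCL2L1. The ratio of BCL2L1 to MCL1 per length was 0.647, 0.603 and 0.672 in KD 1, 2 and 3 and 0.268 in WT, 2.39 times as high in KD. MCL1 made up 59.4% to 62.0% of the summed level per length of the 4 anti-apoptotic genes in KD and 77.5% in WT, and BCL2L1 37.4% to 39.9% and 20.8%. The sum itself depended on the scaling: it was 4121 ± 193 (SD, n = 3) normalized counts per kilobase in KD and 4295 in WT, a ratio of 0.959, and with equal library totals the ratio was 0.649. BCL2 gave 0.548% to 0.652% of it in KD and 0.587% in WT. The shares of MCL1 and BCL2L1 within the group do not depend on the scaling between libraries.

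The sum of the 4 BH3-only members was higher against the anti-apoptotic sum in KD, through BID and PMAIP1, the 2 of the 4 that were called. It was 1508 ± 128 (SD, n = 3) per kilobase in KD and 705 in WT, a ratio of 2.14, or 1.45 with equal library totals. Divided by the anti-apoptotic sum it was 0.378, 0.342 and 0.377 in KD and 0.164 in WT, 2.23 times as high, and no knockdown library came near WT. This holds for the 4 chosen members only, and other BH3-only genes are outside the sum. Of those, BMF (1317 normalized counts in KD against 3526.5 in WT) and HRK were lower. BAD was higher (223 against 101) and BIK was not called. A ratio that includes them was not computed. The composition of the group changed as well: BCL2L11 gave 61.7% of the BH3-only sum in WT and 28.6% to 32.1% in KD, and BID 20.3% and 43.0% to 44.3%. PMAIP1 gave 9.73% in WT and 19.1% to 22.3% in KD. Among these 4 members the most abundant transcript per length was thus BCL2L11 in WT and BID in KD.

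**Figure D4:**
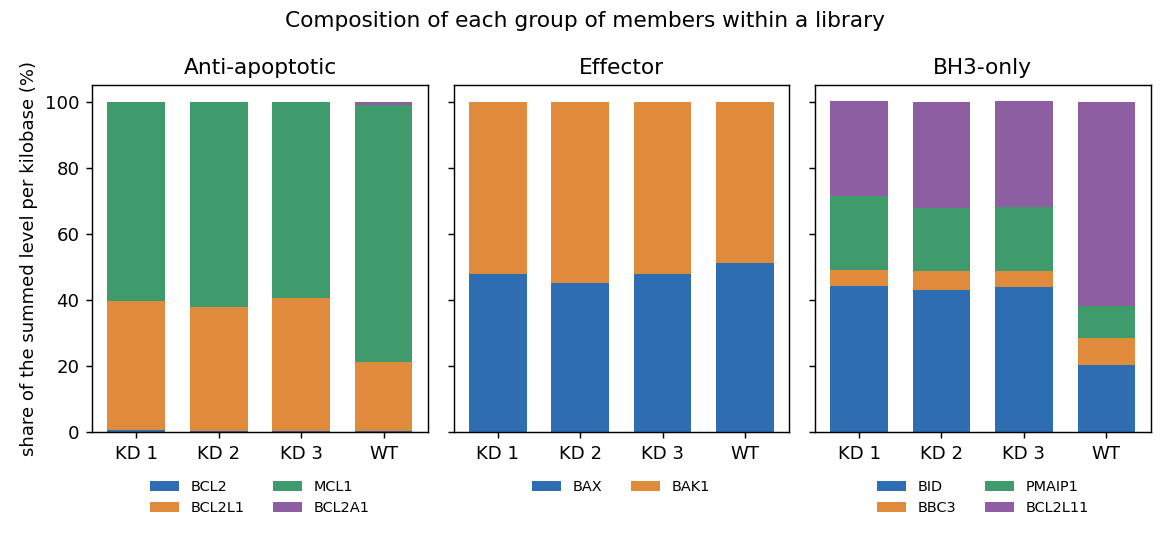
Share of each member (y, percent) in the summed level per kilobase of its group, in 1 bar per library (x) and 1 panel per group. The share of BCL2L1 in the anti-apoptotic panel and of BID and PMAIP1 in the BH3-only panel is larger in the 3 knockdown bars than in the wild-type bar, and the effector panel is nearly even in all 4.

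Pairs known to bind each other showed the same split. The ratio of PMAIP1 to MCL1, an inhibitor and its partner, was 0.14, 0.105 and 0.123 in KD and 0.0206 in WT, 5.96 times as high in KD. That of BID to BCL2L1 was 0.412 ± 0.0178 (SD, n = 3) in KD and 0.16 in WT, and that of BCL2L11 to MCL1 0.186 ± 0.0139 and 0.131. BBC3 to BCL2L1 was lower in KD, at 0.0487 ± 0.0044 against 0.0649.

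The ratio of BAX to an anti-apoptotic gene depended on which gene was taken. BAX to BCL2, the ratio most often quoted as a sign of apoptotic balance, was 15.5, 15.7 and 17.1 in KD and 11.8 in WT. BAX to BCL2L1 was 0.258, 0.239 and 0.234 in KD and 0.333 in WT. All 3 knockdown libraries were above WT for the first and below it for the second. BCL2 was also low against BCL2L1, at 0.0152 ± 0.0015 (SD, n = 3) in KD and 0.0282 in WT. The effectors summed to 828.5 ± 28.7 per kilobase in KD and 580.7 in WT, a ratio of 1.43, or 0.966 with equal library totals. They stayed near equal to each other, with a ratio of BAX to BAK1 of 0.887 ± 0.0525 in KD and 1.05 in WT. These ratios are descriptions of 3 libraries against 1 and were not tested. BCL2 is in the longest class of protein-coding genes by exonic length, with a median log2 difference of 0.01. BAX and BCL2L1 are in the shortest, with a median of 0.64. The part of length in the ratios was not tested.

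**Figure D5:**
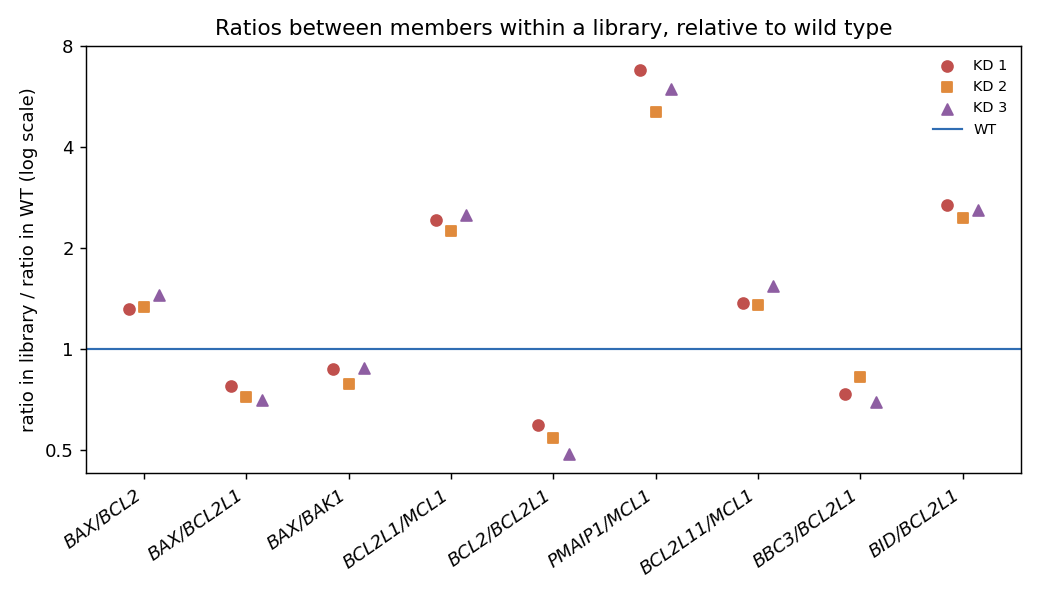
Ratio of 2 members within a knockdown library divided by the same ratio in WT (y, log axis) for 9 pairs (x), with 1 point per knockdown library and a line at 1 for WT. PMAIP1/MCL1, BID/BCL2L1 and BCL2L1/MCL1 lie above 2, the mean of BCL2/BCL2L1 is 0.54, and in all 9 pairs the 3 points fall on 1 side of the line.

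The length of the transcripts moved with the differences between the groups. Protein-coding genes were cut by exonic length into 3 classes of about equal size. Those in the shortest class, with up to 3.77 kb of exons, had a median log2 difference of 0.64 and 53.3% were called higher. In the longest class, above 6.53 kb, the median was 0.01 and 36.5% were called higher. BCL2L1, BCL2A1, BAX, BAK1, BBC3 and PMAIP1 are in the shortest class, MCL1 and BID in the middle class, whose median was 0.33, and BCL2 and BCL2L11 in the longest. PMAIP1 (2.14) and BID (2.19) were far above the medians of their classes and MCL1 (-0.42) below its own. A length adjustment of each library, an alternative chosen after seeing the data, was fitted over all genes tested with a known length, noncoding genes included. The protein-coding median was 0.40 under it and 0.28 without it, so it is no check of the trend among protein-coding genes. Under this adjustment the differences were 2.33 for PMAIP1, 2.19 for BID, 0.84 for BCL2L1 and -0.42 for MCL1, all called. BCL2A1 stood at -2.98. It passed the filter only through WT, so its call under this adjustment does not support the difference.

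The promoters of BID and PMAIP1 are shown because both genes were higher in KD, beside that of BCL2A1, which was scarce in WT and nearly absent from KD. RefSeq promoters (GRCh38.p14, 250 bases before the start and 50 after) were given for 9 of the 10 members. Capitals mark the letters searched on both strands: GGGCGG, the GC box that SP1 factors bind, CACGTG, an E-box, TGACGTCA, the full cAMP response element, and TGACG, its half-site, which overlaps the full element. The PMAIP1 promoter is chr18:59899746-59900045 on the plus strand, that of BID, the first of 5 start sites listed, is chr22:17774420-17774719 on the minus strand, and that of BCL2A1 is chr15:79971147-79971446 on the minus strand, each written 5′ to 3′.
PMAIP1: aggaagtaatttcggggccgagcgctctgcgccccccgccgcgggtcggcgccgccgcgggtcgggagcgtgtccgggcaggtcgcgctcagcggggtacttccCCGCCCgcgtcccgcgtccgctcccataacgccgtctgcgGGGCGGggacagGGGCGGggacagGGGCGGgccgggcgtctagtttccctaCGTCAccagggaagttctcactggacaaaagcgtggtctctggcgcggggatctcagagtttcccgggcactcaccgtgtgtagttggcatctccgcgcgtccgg
BID: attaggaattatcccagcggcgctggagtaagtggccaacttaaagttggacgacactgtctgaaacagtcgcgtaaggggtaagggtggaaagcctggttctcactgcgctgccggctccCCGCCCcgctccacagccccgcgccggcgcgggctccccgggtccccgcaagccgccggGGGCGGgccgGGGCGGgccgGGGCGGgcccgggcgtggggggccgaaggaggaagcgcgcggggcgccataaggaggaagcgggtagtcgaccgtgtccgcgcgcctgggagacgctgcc
BCL2A1: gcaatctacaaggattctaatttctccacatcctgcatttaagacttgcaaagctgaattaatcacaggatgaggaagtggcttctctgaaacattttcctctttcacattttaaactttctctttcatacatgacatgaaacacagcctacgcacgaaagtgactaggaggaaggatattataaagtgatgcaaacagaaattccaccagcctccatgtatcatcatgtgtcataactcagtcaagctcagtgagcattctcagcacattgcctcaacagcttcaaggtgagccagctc
PMAIP1 and this BID promoter each held 4 GC boxes, and 45.0% of the 35116 promoters in the table held at least 1. The other BID start sites held 2, 0, 4 and 3, and GC boxes were not particular to these genes: BCL2L11, which was not called, held 3, and BAX and BAK1 held 2 each. PMAIP1 also held 1 half-site of the cAMP response element, found in 24.6% of promoters, and no full element, found in 1.8%. BCL2A1 held none of the 4 motifs in this window. A match is a description of letters and shows no binding.

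The rest of the BCL2 family went both ways. Of 15 other genes, 8 rose, 4 fell and 3 were not called, against 45.9% higher and 24.7% lower among protein-coding genes. Scaled to equal totals, 6 rose and 5 fell, against 29.8% and 44.3%. The median log2 difference was 0.75, or 0.18 with equal library totals. BNIP3, a mitophagy receptor induced by hypoxia, stood at 4696 ± 482 (SD, n = 3) normalized counts in KD and 1451 in WT (log2 difference 1.69, limma adjusted p = 1.12e-04). HRK, a BH3-only gene of neurons, stood at 34 ± 4.98 against 128 (-1.89, adjusted p = 0.00511). Neural markers went both ways. The 11 listed summed to 2766 to 3765 normalized counts in KD and 5621 in WT, where NEUROD6 alone gave 2374. NEUROD6 and NEUROD1 had no read in KD. Of 9 tested, 6 were called lower and 1 higher, against 36.3% and 31.4% of all genes. Of these 9, GRIN2A, NEUROD6 and SNAP25 passed the filter only through WT and so had to be lower. Of the other 6, with a knockdown mean of 10 or more, 3 were called lower. MAP2 rose (2568 ± 518, SD, against 1007), and RBFOX3 and SLC17A7 were not called. The part of neural RNA in the HRK result was not tested. BCL2L14 stood at 30.7 ± 4.42 against 119 and BCL2L15 at 16.6 ± 5.06 against 71.1 (-1.93 and -2.07, adjusted p = 0.00523 and 0.0129). Named after their values were seen, the BH3-only genes BMF and BAD went in opposite directions, BMF down at 1317 ± 209 against 3526 (-1.43, adjusted p = 5.74e-04) and BAD up at 223 ± 8.94 against 101 (1.13, adjusted p = 0.00286). BAD shares 23.7% of its exonic bases with GPR137 on the opposite strand. BH3-only genes as a kind therefore did not move one way.

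Among genes that act at and after the mitochondrial membrane, more were called higher than lower. VDAC1, VDAC2, VDAC3 and MTCH2, outer membrane proteins that bind BAK1, BAX or cleaved BID, all rose, by log2 differences of 1.94, 1.56, 2.17 and 1.79 (limma adjusted p at most 8.76e-05). That is 4 of 4, against 45.9% of protein-coding genes called higher. With equal library totals all 4 also rose, against 29.8%, and the median moved from 1.86 to 1.3. Of 13 genes for the apoptosome, released mitochondrial proteins and caspases, 10 rose, 1 fell and 2 were not called, against 45.9% higher and 24.7% lower among protein-coding genes. With equal library totals 6 rose and 3 fell, against 29.8% and 44.3%, and the median moved from 0.92 to 0.36. Cytochrome c (CYCS), which starts the assembly of the apoptosome, stood at 11478 ± 1051 (SD, n = 3) normalized counts against 2258 (2.34, adjusted p = 6.57e-05). DIABLO, whose product releases caspases from their inhibitors, was the 1 that fell, at 157 ± 13.4 against 470 (-1.58, adjusted p = 7.17e-04). DIABLO shares exonic bases with other annotated genes on its own strand, and CYCS, the VDAC genes, BNIP3 and XIAP have pseudogene copies, so these counts are uncertain.

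Most, but not all, of the caspase inhibitor genes tested were higher. Of 5 inhibitor of apoptosis genes tested, 4 rose and 1 fell, against 45.9% and 24.7% of protein-coding genes. With equal library totals 3 rose and 1 fell, against 29.8% and 44.3%, and the median moved from 1.36 to 0.8. BIRC5, which encodes survivin and also serves in mitosis, stood at 3946 ± 445 (SD, n = 3) against 1217 and BIRC2 at 2351 ± 178 against 872. XIAP stood at 7144 ± 319 against 2775 and BIRC3 at 126 ± 2.89 against 75.5 (limma adjusted p at most 0.034 for these 4). BIRC6, named after its values were seen, fell by 0.37 on the log2 scale (adjusted p = 0.0285). Without 1 of the knockdown libraries, adjusted p reached 0.0905 for BIRC3 and 0.116 for BIRC6. The sixth gene, BIRC7, had 1 read in all and was not tested.

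In the death receptor arm that feeds BID, 3 of 6 genes rose and 2 fell, against 45.9% and 24.7% of protein-coding genes. With equal library totals 2 rose and 2 fell, against 29.8% and 44.3%, and the median moved from 0.41 to -0.15. The receptor gene FAS stood at 3516 ± 133 (SD, n = 3) against 1442 and its adaptor FADD at 216 ± 0.817 against 97.7. An antisense gene covers 54.9% of the FADD exons on the opposite strand, so this value is uncertain. CFLAR, which encodes FLIP, the inhibitor of caspase-8 at the receptor, fell to 1443 ± 131 from 4225 (-1.55, limma adjusted p = 1.31e-04), and the TRAIL receptor TNFRSF10B to 2325 ± 95 from 3099 (-0.41, adjusted p = 0.00999). BID and FAS thus rose while the gene of the caspase-8 inhibitor fell, but the list as a whole did not move one way.

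Known transcription regulators of BH3-only genes were also mixed, with 6 of 9 higher and 2 lower, against 45.9% and 24.7% of protein-coding genes. With equal library totals 3 rose and 3 fell, against 29.8% and 44.3%, and the median moved from 0.56 to 0.00. ATF4 stood at 14116 ± 911 (SD, n = 3) against 4403, its target TRIB3 at 2303 ± 145 against 610 and E2F1 at 3680 ± 106 against 1476 (limma adjusted p at most 9.06e-05). TP73, a relative of p53, fell to 35.4 ± 12.5 from 220 (-2.66, adjusted p = 0.0032). Of 5 genes for MCL1 protein turnover, MARCHF5, a mitochondrial ubiquitin ligase, rose to 1765 ± 172 from 594 and USP9X, which removes ubiquitin from MCL1, by 0.57 on the log2 scale (0.01 with equal library totals). BTRC and FBXW7, both ubiquitin ligase subunits, differed by 0.29 and -0.28 (adjusted p = 0.0418 and 0.0496), and BTRC stood at -0.28 with equal library totals. Without 1 of the knockdown libraries, adjusted p reached 0.095 for BTRC and 0.0852 for FBXW7. The list turned from 3 higher and 1 lower to 1 higher and 3 lower with equal library totals. Across the 7 pathway lists, 38 of 57 genes tested were higher and 11 lower, against 45.9% and 24.7% of protein-coding genes. Scaled to equal library totals, 25 were higher and 17 lower, against 29.8% and 44.3%.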

How the data were processed

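Total RNA was depleted of ribosomal RNA and sequenced as paired reads from strand-marked libraries, per the labels' protocols. The tools named in the submitters' processing notes are STAR (2.7.11b), featureCounts (2.0.6) and DESeq2, with the build hg38. The annotation, the strand setting and the handling of reads shared between genes are not stated there. Each deposited file gives 1 signal value a gene, a read count that the authors had normalized. In each library 100% of values were whole multiples of 1 step (within 0.001 reads), so whole reads were recovered. The deposited factors were 1.0551, 1.2869 and 0.8995 (KD 1, 2 and 3) and 0.9003 (WT).

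Groups were compared with limma-trend (version 3.58.1 in R 4.3.3), two-sided, after a pseudocount of 1 and log2 transformation; 23344 genes whose mean reached 10 entered the fit. Adjusted p-values are Benjamini-Hochberg values over these genes, called under 0.05. Fold changes on this scale understate those of low genes. The spread comes from the 3 knockdown libraries, and WT, with no replicate, was taken to vary as they do. With 1 library against 3, an exact permutation test of a single value cannot go below p = 0.25 (one-sided), so none is given. Alternatives were edgeR 4.0.16 (quasi-likelihood test; 7402 genes higher and 9271 lower) and DESeq2 1.42.0 on the recovered reads, 4 scalings, 2 pseudocounts (0.5 and 10), 2 filters, protein-coding genes only, leaving out each knockdown library, and a length adjustment. The test was also run on simulated counts in which 100 genes changed 2-fold and 100 changed 4-fold. It recovered 82 and 99 of them, with 24 false calls among 23144 unchanged genes. All libraries were drawn there with 1 assumed spread, and far fewer genes changed than were called in the data. The simulation therefore cannot show whether WT varies as the knockdown libraries do. Gene types, exonic lengths (union of exons) and positions are from GENCODE 29 (GRCh38), matched for 95.1% of genes tested. Every pair of libraries differed by more than sampling noise. The members and the lists were chosen with earlier results of these data known. From each pathway list, up to 4 called genes with the largest absolute log2 difference were named; some genes that this rule selects are not reported here. Intervals from reads cover counting error only.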

Additional observations from a re-analysis of the deposited data

How the results depend on the processing

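BID, PMAIP1 and BCL2L1 kept their direction and their call under all 15 alternatives. With equal library totals and with upper-quartile scaling 3 members were called higher in each, in place of 5, and 4 lower in each, in place of 2. Under these 2 scalings the differences were -0.18 and -0.08 for BAX, -0.14 and -0.05 for BBC3 and -0.47 and -0.38 for BCL2L11. BCL2 was positive with TMM (0.04), median-of-ratios scaling (0.12) and the length adjustment (0.23), an alternative chosen after seeing the data. Only 1 member was called lower with median-of-ratios scaling, without the filter and with a mean of at least 50, which leaves BCL2A1 out. Leaving out 1 knockdown library gave 1 to 2 members lower and 4 to 5 higher. Over all genes, equal totals gave 4746 higher in place of 7329. In place of 8465 lower, a mean of at least 50 gave 5086, protein-coding genes only 3710 and the length adjustment 5305. All of these test fewer genes, the length adjustment 22197 in place of 23344. The cause of the other changes, and of that under the length adjustment, was not tested. No paired analysis was possible because the wild-type library has no replicate number and the groups share fewer than 2. Depth limits BCL2A1 most, with 10 knockdown reads in all.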
